A study of Homo sapiens with 2 samples.

Results

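The heat shock proteins and their DNAJ co-chaperones were examined in Huh7 cells, a human hepatocellular carcinoma line, after knockdown of BRF2, a subunit of an RNA polymerase III initiation factor. Members were taken by gene symbol from the table of 61541 genes: symbols that start with HSPA, HSPB or DNAJA, DNAJB or DNAJC and a digit, or with HSP90A, together with HSPD1, HSPE1 and HSPH1. HSPA5, DNAJB9 and DNAJC3, which belong to the unfolded protein response of the endoplasmic reticulum, were left out, as were rows whose description names a pseudogene or antisense gene. The annotation types 3 kept members, all without reads, as a pseudogene (DNAJB3) or antisense (DNAJA2-DT and DNAJA4-DT). This gave 75 genes, of which 69 had reads. They were 11 HSP70, 3 HSP110, 2 HSP90, 2 mitochondrial chaperonin, 8 small heat shock protein, 4 DNAJA, 12 DNAJB and 27 DNAJC genes, plus 2 readthrough genes that join a chaperone gene to its neighbour and 4 noncoding divergent transcripts.

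The Huh7-NC library came from cells that received the control siRNA, and the Huh7-si library from cells that received siRNA against BRF2. There was 1 library per condition, so no difference below has a replicate check, and both are total RNA of the same line with no other treatment named in the labels. The libraries held 22852648 and 22089016 reads on genes. The siRNA's target BRF2 went from 1281 reads in Huh7-NC to 364 reads, or by -1.77 on the log2 scale (95% interval -1.94 to -1.60). The labels do not say which siRNA against BRF2 was used. The hepatocyte and hepatoma markers ALB, AFP, APOA1, TTR, SERPINA1, TF, FGB and HNF4A all had over 1000 reads in both libraries, and their log2 fold changes ran from -0.83 for APOA1 to 0.24 for AFP. Of the markers of other cell types, the leukocyte genes PTPRC and CD3E had at most 5 reads per library, GFAP 10.9 and 7.1, PECAM1 60 and 63, COL1A1 76 and 229 (log2 1.64, 1.26 to 2.03) and VIM 7796 and 9771 (0.37, 0.33 to 0.42). Their part in the differences below was not tested.

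Chaperones hold, fold and refold other proteins. HSP70 proteins bind unfolded stretches in a cycle of ATP hydrolysis that J-domain proteins (DNAJ) start and that exchange factors such as HSP110 end, and HSP90 takes over many of these clients. The chaperonin of HSPD1 and HSPE1 encloses proteins in the mitochondrial matrix, and small heat shock proteins keep aggregating proteins soluble without ATP. Many of these genes are induced by heat shock factor 1 (HSF1), which binds heat shock elements, inverted repeats of the unit GAA, and some are also highly expressed without stress.

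The heat shock elements of the group are shown first, because they are the sequence through which HSF1 is known to act on this group. The 250 bases before the transcription start were searched on both strands, in RefSeq promoters of GRCh38.p14 that were found for 65 of the 75 genes (85 starts). A pair of units was written as GAANNTTC or TTCNNGAA, and a run of 3 units as either pair followed by 2 more bases of any kind and the next unit, so that every run of 3 units also counts as a pair. A run of 3 units was present for 6 genes (DNAJB6, HSP90AA1, HSP90AB1, HSPA6, HSPA8 and HSPD1; 6 of 85 starts), and 0.441% of all 35116 promoters held one. A pair was present for 20 genes (20 of 85 starts), and 11.6% of all promoters held one. Of the 12 genes listed as heat inducible (HSPA1A, HSPA1B, HSPA6, HSPA8, HSPH1, HSP90AA1, HSPB1, HSPD1, HSPE1, DNAJA1, DNAJB1 and HSPA4L), 10 held a pair and 4 held 3 units. The letters CCAAT and TATAAA were found at 30 and 12 of the 85 starts, against 32% and 10.7% of all promoters. A match is a description of letters and not a binding site. The 30 bases around the longest run are given for members with 3 units or with a place in the heat inducible list, with the matched units in capitals.
HSPA8 (chr11:123062171-123062200, minus strand): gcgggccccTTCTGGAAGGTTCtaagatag
HSP90AA1 (chr14:102087112-102087141, minus strand): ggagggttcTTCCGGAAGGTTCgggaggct
HSP90AB1 (chr6:44247822-44247851, plus strand): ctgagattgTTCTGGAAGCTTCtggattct
HSPD1 (chr2:197500061-197500090, minus strand): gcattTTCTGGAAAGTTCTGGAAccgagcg
HSPA6 (chr1:161524457-161524486, plus strand): gcggaaaggTTCGCGAAAGTTCgcggcggc
DNAJB6 (chr7:157336864-157336893, plus strand): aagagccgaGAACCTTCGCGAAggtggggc
HSPA1A (chr6:31815426-31815455, plus strand): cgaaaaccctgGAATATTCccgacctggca
HSPA1B (chr6:31827622-31827651, plus strand): cgaaacccctgGAATATTCccgacctggca
HSPB1 (chr7:76302480-76302509, plus strand): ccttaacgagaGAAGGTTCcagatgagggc
DNAJA1 (chr9:33025064-33025093, plus strand): aaagggctccaGAAGATTCcacgagcgccg
HSPA4L (chr4:127782141-127782170, plus strand): tttccagatctTTCTCGAAcccgcagcttc
DNAJB1 (chr19:14518426-14518455, minus strand): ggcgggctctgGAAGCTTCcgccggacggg
The first 6 carry at least 3 units and the others a pair. The run shown for HSPA8 lies 43 to 55 bases before the start and that for HSP90AB1 100 to 112 bases before it. Each has another run of 3 units further upstream, which is not shown. DNAJA4, DNAJB4, DNAJB7, DNAJC15, HSPA1L, HSPB3, HSPB6 and HSPB8 also held a pair and are not shown. No match was found in these windows for the heat inducible HSPE1 and HSPH1. HSPE1 is annotated on the plus strand from 197499994 to 197503457, so the bases shown for HSPD1 lie within the HSPE1 gene. The lack of a match for HSPE1 therefore covers its window only and not these bases.

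The most abundant chaperones of the control were lower in Huh7-si: the 7 with the highest TPM in Huh7-NC had log2 fold changes between -0.70 and -0.33. HSPA9, the next, had -0.14 by reads and 0.20 by TPM. In Huh7-si it stood above DNAJA1 of these 7 (249 against 206 TPM). A smaller set of chaperones, led by the endosomal DNAJC13 (0.71), was higher. The 7 were ranked in the control library, which is also the reference of the fold change. Their 95% intervals lay below 0. Of all genes with at least 1000 reads over both libraries, 35.8% had intervals below 0 and 44.5% above. With libraries scaled by edgeR's TMM these were 55.3% and 26.6%. These log2 fold changes compare shares of each library's RNA, and less RNA of a gene per cell and more RNA of other genes cannot be told apart. By the thresholds of a 2-fold difference and an unadjusted p under 0.05 (two-sided exact binomial test of rounded reads, a comparison of 2 libraries rather than of 2 treatments), 1 of the 69 genes with reads was called higher and 0 were called lower. Of all 26379 genes with reads, 10.4% were called higher and 1.02% lower. At 1.5-fold, 3 members were higher (HSPB2-C11orf52, DNAJC13 and DNAJC27) against 17.6% of all genes, and 3 were lower (HSPE1, HSPA1A and DNAJC12) against 2.87% of all genes. With libraries scaled by edgeR's TMM instead, 0 members were higher and 17 lower at 1.5-fold, against 11.2% and 8.36% of all genes. DNAJC27 and DNAJC12 rested on 76 and 100 reads over both libraries.

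Direction was counted among the 54 members with at least 100 reads over both libraries, as intervals of the fold change (95% Clopper-Pearson, counting error only) that lay wholly above or below no change. They lay below it for 26 members (48.1%) and above it for 14 (25.9%), against 26.1% and 45.9% of all 12978 genes with as many reads. More genes were thus higher than lower over the whole table, and more chaperones were lower than higher. In this count TMM, which lowers every log2 fold change by 0.22, gave 37 lower and 5 higher members, against 42% and 29.4% of all genes. Relative to genes of like length (the log2 fold change less the median of its length class), 30 were lower and 6 higher, against 39.8% and 26.6%. Under total reads, TMM, the median of ratios, the upper quartile, TPM and like length together, 23 members were lower throughout and 9 higher throughout, which is 42.6% and 16.7% of the members against 24.1% and 35.2% of all genes. The direction of the other 22 turned under at least 1 of these settings.

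**Figure D1:**
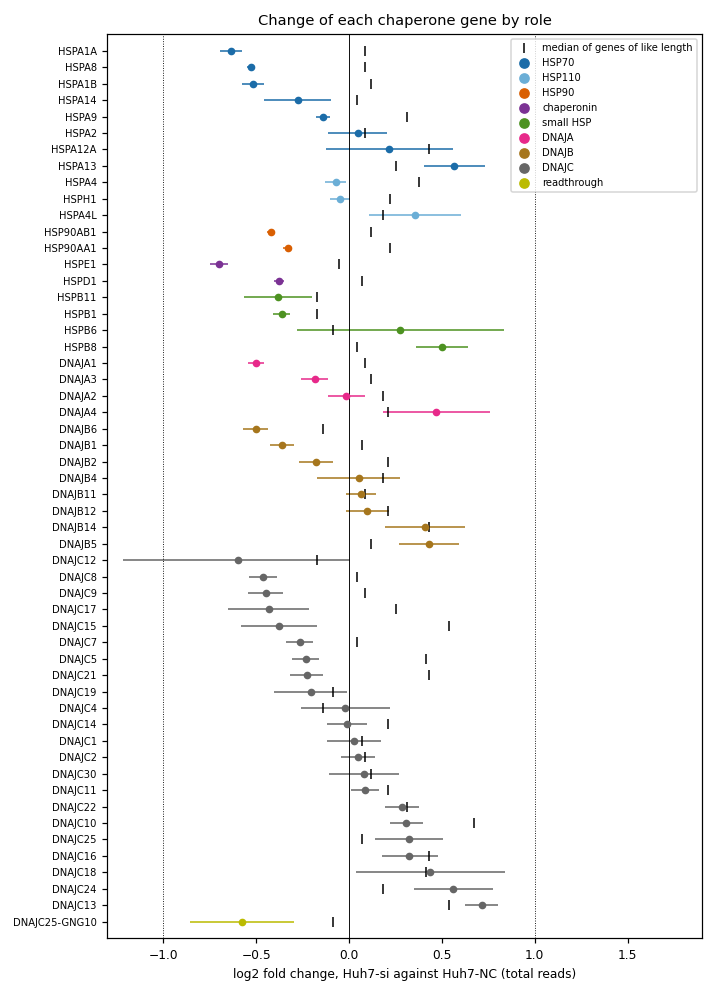
Log2 fold change (Huh7-si against Huh7-NC, scaled to total reads) of the 54 chaperone genes with at least 100 reads over both libraries, by role. Points are fold changes, bars 95% intervals of counting error, black ticks the median of all genes of like length, and dotted lines mark 2-fold. Points run from -0.70 for HSPE1 to 0.71 for DNAJC13, and all lie between the 2-fold lines.

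Levels were compared between genes as TPM, which scales reads to gene length and library size. HSPE1 was the most abundant member of the control library with 1583 TPM, followed by HSPA8 with 1345 TPM, HSPB1 with 1036 TPM, HSP90AB1 with 997 TPM and HSPD1 with 634 TPM. These 5 genes made up 66.0% of the TPM of all 75 genes in the control and 61.6% in the knockdown library. The whole group summed to 8478 and 7314 TPM, or 0.850% and 0.734% of all TPM. In CPM (reads of a gene relative to all reads of the library), the sum was 11921 and 9486, or -0.33 on the log2 scale. The 12 heat inducible genes accounted for 6861 of these CPM in Huh7-NC and 5064 in Huh7-si.

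**Figure D2:**
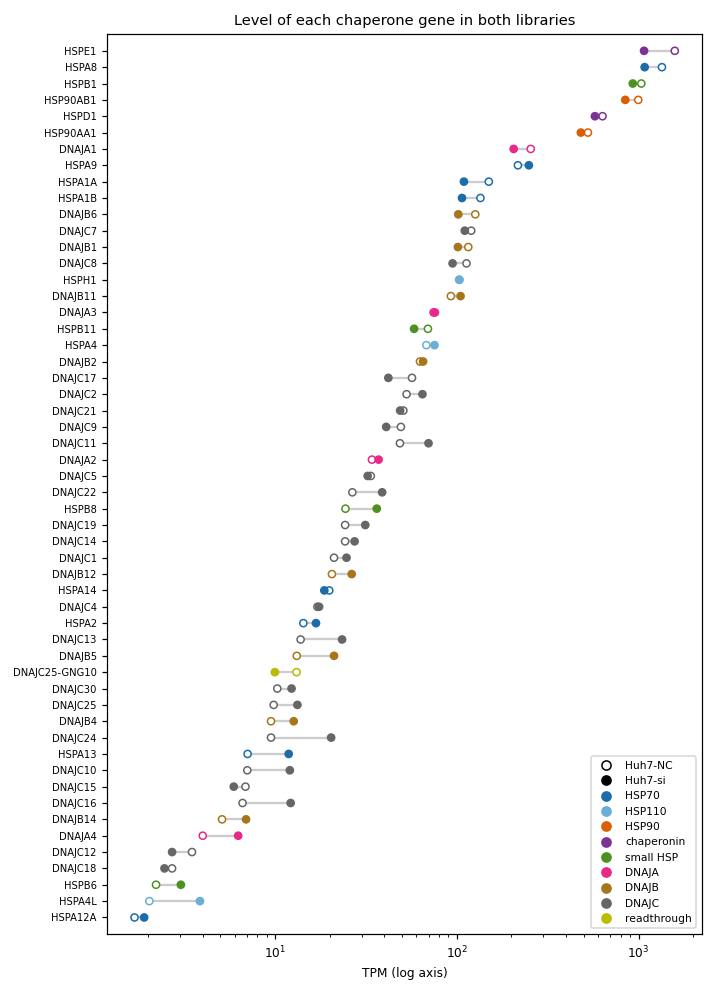
Level in TPM (log axis) of the 54 chaperone genes with at least 100 reads over both libraries. Open circles are Huh7-NC and filled circles Huh7-si, with 1 library each and colours for roles. The 7 genes most abundant in Huh7-NC are all lower in Huh7-si, from HSPE1 (1583 to 1073 TPM) to DNAJA1 (255 to 206 TPM). HSPA9, the next in Huh7-NC, is higher in TPM (217 to 249).

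The abundant cytosolic HSP70 genes were lower in Huh7-si. HSPA8, the constitutive HSC70, had 50044 reads in the control and 33541 in the knockdown library, and its log2 fold change was -0.53 (-0.55 to -0.51). Read pairs and log2 fold changes with their intervals are given below in this order. The inducible HSP70 genes HSPA1A and HSPA1B encode nearly the same protein and lie next to each other on chromosome 6 (GRCh38, GENCODE release 29), at 31815464 to 31817946 and 31827735 to 31830255. HSPA1A had 6354 and 3954 reads (-0.64, -0.69 to -0.58), and HSPA1B had 6025 and 4068 reads (-0.52, -0.58 to -0.46). Reads shared between these copies cannot be assigned with certainty, and with both added together the log2 fold change was -0.58 (-0.62 to -0.54). HSPA1B also shares 920 exonic bases on the same strand with the transcript ENSG00000285565, with 1055 and 1396 reads. The intervals of the 3 genes lay below 0, and HSPA8 held most of the HSP70 reads.

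The other HSP70 genes went different ways. HSPA9, the mitochondrial HSP70, had 13484 and 11831 reads, a log2 fold change of -0.14 (-0.18 to -0.10) by reads and of 0.20 by TPM, so that its direction depended on the scale. HSPA13, an HSP70-like ATPase of microsomes, had 515 and 737 reads (0.57, 0.40 to 0.73) and was the one HSP70 gene whose interval lay above 0. HSPA14, a partner of the ribosome-associated chaperone DNAJC2, had 566 and 452 reads (-0.28, -0.46 to -0.09) and shares 460 exonic bases with ENSG00000284024. The testis-enriched HSPA2 had 646 and 645 reads (0.05, -0.11 to 0.21). HSPA12A, HSPA12B and HSPA1L had between 25 and 154 reads per library, with intervals on both sides of 0. HSPA6, which is strongly induced by heat and nearly silent without it, had 6 reads in each library. The median of the 11 genes was -0.14, and 9 of them lay below genes of like length, as did 8955 of all 17921 genes with at least 10 reads.

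Of the HSP110 genes, nucleotide exchange factors of HSP70, HSPH1 had 5866 and 5491 reads (-0.05, -0.10 to 0.01) and HSPA4 5664 and 5208 reads (-0.07, -0.13 to -0.02). By TPM HSPA4 was higher (0.15). HSPA4L had 245 and 303 reads, a log2 fold change of 0.36 (0.11 to 0.60), and was the only heat inducible gene with at least 100 reads that was higher under every scaling. The intervals of HSPH1 and HSPA4 did not overlap those of HSPA8, HSPA1A and HSPA1B.

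Both cytosolic HSP90 genes were lower in Huh7-si. HSP90AB1, the constitutive HSP90 beta, had 45215 and 32708 reads (-0.42, -0.44 to -0.40), and HSP90AA1, the inducible HSP90 alpha, had 30856 and 23717 reads (-0.33, -0.36 to -0.31). The mitochondrial chaperonin genes HSPD1 and HSPE1 lie head to head on chromosome 2. HSPD1 (HSP60) had 24335 and 18124 reads (-0.38, -0.40 to -0.35). HSPE1 (HSP10), its lid, had 9557 and 5685 reads (-0.70, -0.75 to -0.65), the lowest log2 fold change by reads among members with at least 100 reads. Relative to genes of like length it was -0.65, above DNAJC15 (-0.91), HSPA1A (-0.72), DNAJC17 (-0.68) and DNAJC21 (-0.66). The annotation has HSPD1 and HSPE1 share 281 exonic bases on opposite strands, and whether reads were counted by strand is not given in the sources used here.

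The small heat shock protein genes with more than 100 reads went both ways. HSPB1 (HSP27), the main one in these cells, had 8662 and 6518 reads (-0.36, -0.41 to -0.31), and HSPB11, an intraflagellar transport subunit in spite of its name, had 583 and 433 reads (-0.38, -0.56 to -0.20). HSPB8, which works with BAG3 in selective autophagy, had 710 and 972 reads (0.50, 0.36 to 0.64), and HSPB6 had 53 and 62 reads (0.28, -0.28 to 0.83). HSPB9, HSPB7 and HSPB2 had at most 3 reads per library, at or under the limit of 3 reads that a count of 0 allows. HSPB3 had no reads.

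DNAJA genes encode the J-domain proteins closest to the bacterial DnaJ. DNAJA1, the main one, had 10387 and 7104 reads (-0.50, -0.54 to -0.46). The mitochondrial DNAJA3 had 3427 and 2913 reads (-0.19, -0.26 to -0.11), DNAJA2 1664 and 1593 reads (-0.01, -0.11 to 0.09), and DNAJA4 174 and 233 reads (0.47, 0.18 to 0.76). By TPM the direction turned for DNAJA3 (0.02) and DNAJA2 (0.12). The 4 genes thus ordered by abundance in the same way as by their change, with DNAJA1 the most abundant and the lowest.

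Among the DNAJB genes, DNAJB6, which suppresses aggregation of polyglutamine proteins, had 4602 and 3139 reads (-0.50, -0.57 to -0.44), and DNAJB1 (HSP40), the heat inducible partner of HSPA1A, had 4454 and 3352 reads (-0.36, -0.43 to -0.30). DNAJB2 had 2069 and 1770 reads (-0.18, -0.27 to -0.08) but was higher by TPM (0.06). DNAJB11 and DNAJB12, a soluble and a membrane-bound DNAJB protein of the endoplasmic reticulum, had log2 fold changes of 0.06 (-0.01 to 0.14) and 0.10 (-0.02 to 0.22). DNAJB5 with 562 and 733 reads (0.43, 0.27 to 0.59) and DNAJB14 with 314 and 403 reads (0.41, 0.19 to 0.63; -0.02 relative to like length) were higher by reads, and DNAJB4 had 334 and 335 reads. DNAJB13 and DNAJB7 had at most 4 reads per library, and DNAJB3 and DNAJB8 none.

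DNAJC is the most varied class, whose members recruit HSP70 to particular places and tasks. Of the 22 with at least 100 reads, 8 intervals lay above 0 and 8 below, against 45.9% and 26.1% of all genes with as many reads. DNAJC7, a cochaperone of HSP70 and HSP90 and the most read of them, had 3488 and 2805 reads (-0.27, -0.34 to -0.19). Lower as well were the splicing-associated DNAJC8 with 3317 and 2326 reads (-0.46, -0.54 to -0.39), the histone chaperone DNAJC9 with 2243 and 1590 reads (-0.45, -0.54 to -0.35), DNAJC17, DNAJC15, DNAJC5, DNAJC21 and DNAJC19. By TPM the direction turned for DNAJC19 (0.37). DNAJC17 shares 1151 exonic bases with GCHFR on the opposite strand, which had 906 and 566 reads.

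The DNAJC genes that were higher were led by DNAJC13, a regulator of endosomal sorting, with 1640 and 2600 reads. Its log2 fold change of 0.71 (0.62 to 0.80) was the highest by reads among members with at least 100 reads. Relative to genes of like length it was 0.17, below HSPB8 (0.46), DNAJC24 (0.38) and HSPA13 (0.31), and by TPM it was 0.76, below DNAJC24 (1.10) and HSPA4L (0.92). DNAJC24, which takes part in diphthamide synthesis, had 313 and 447 reads (0.56, 0.35 to 0.78), and its TPM went from 9.52 to 20.4. DNAJC18 had 94 and 123 reads (0.44, 0.04 to 0.84) but 2.72 and 2.47 TPM, so that its direction turned with the scale. The others above 0 were DNAJC10, a disulfide reductase of the endoplasmic reticulum, with 1925 and 2304 reads (0.31, 0.22 to 0.40), DNAJC22, DNAJC16, DNAJC25 and DNAJC11. Relative to genes of like length the direction turned for DNAJC10 (-0.36), DNAJC11 (-0.12), DNAJC16 (-0.11) and DNAJC22 (-0.03), and with TMM for DNAJC11 (-0.14). The intervals of DNAJC14, DNAJC1, DNAJC2, DNAJC30, DNAJC4 and DNAJC12 held 0. Under 100 reads were DNAJC6 (47 and 40), DNAJC27 (27 and 49) and DNAJC28 (14 and 16), DNAJC5B had 1 read and DNAJC5G none.

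The single gene called by the 2-fold threshold was the readthrough HSPB2-C11orf52. It had 7.42 estimated reads in the control and 17.8 in the knockdown library, a log2 fold change of 1.31 (0.08 to 2.91, exact binomial p = 0.027), and shares exons with HSPB2 and C11orf52, so that these reads could be divided otherwise. The readthrough DNAJC25-GNG10 had 274 and 178 reads (-0.57, -0.85 to -0.30), while DNAJC25, with which it shares 358 exonic bases on the same strand, had 456 and 551 reads (0.32, 0.14 to 0.50). Of the divergent transcripts, DNAJC3-DT had 16 and 23 reads, DNAJB5-DT 1 read in all, and DNAJA2-DT and DNAJA4-DT none.

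The 12 heat inducible genes had a median log2 fold change of -0.37, and 11 of them lay below genes of like length. So did 8955 of all 17921 genes with at least 10 reads, and 4994 of the 7454 with at least 1000 reads. HSPA6 counts among the 11 at -0.04, with 6 reads per library. Members outside the list that held a pair of heat shock units went both ways by reads. HSPB8 (0.50), DNAJA4 (0.47), HSPA1L (0.39), HSPB6 (0.28) and DNAJB4 (0.05) were higher, the last 3 with intervals that held 0. DNAJB6 (-0.50), HSP90AB1 (-0.42) and DNAJC15 (-0.38) were lower. DNAJB7 and HSPB3 had at most 3.3 reads per library. The median over the 62 members with at least 10 reads was -0.02, against 0.21 over all 17921 such genes, and over the 50 members outside the heat inducible list it was 0.05. By role, the medians were -0.37 for HSP90, -0.54 for the chaperonin, -0.14 for HSP70, -0.05 for HSP110, -0.04 for small heat shock proteins, -0.10 for DNAJA, 0.06 for DNAJB and 0.03 for DNAJC. With TMM all of these were below 0, from -0.17 for DNAJB to -0.76 for the chaperonin. With TPM only the HSP90 and chaperonin medians were below 0 (-0.18 and -0.35), beside a median of 0.39 for all genes.

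**Figure D3:**
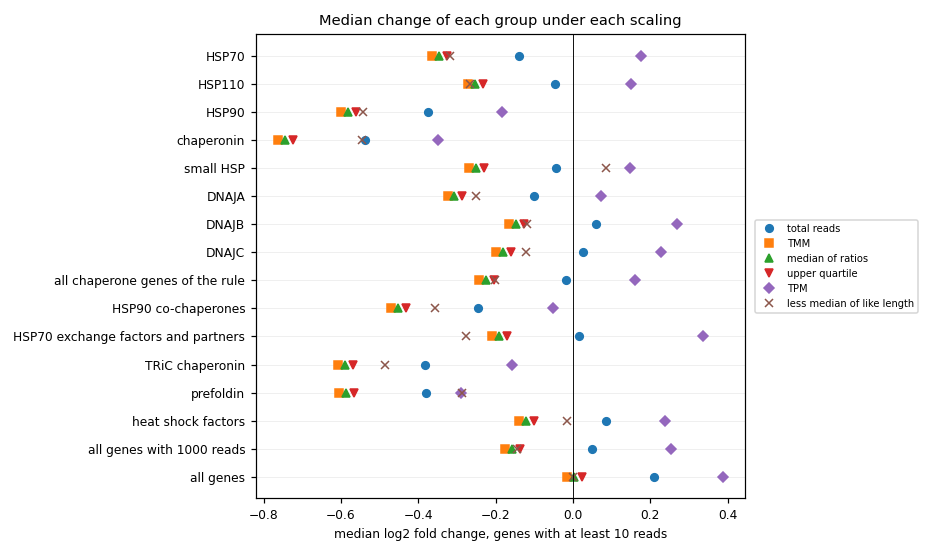
Median log2 fold change (genes with at least 10 reads) of each role and of other chaperone lists under 5 scalings and relative to genes of like length, with all genes for comparison. The chaperonin, HSP90, TRiC and prefoldin medians lie below 0 under every scaling and below the median of all genes under the same scaling.

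Length and abundance moved with these differences, and their part in them was not tested. Across the 54 members with at least 100 reads, the log2 fold change had a Spearman correlation of 0.48 with gene length and of -0.44 with reads, and across all 12978 such genes of 0.50 and -0.27. Genes within one library pair are not independent replicates. The 39 members with at least 1000 reads had a median of -0.18, against 0.05 for all genes with as many reads, and relative to genes of like length these medians were -0.31 and -0.15. The 23 members with fewer reads had a median of 0.22, against 0.38 for all genes with at least 10 and fewer than 1000 reads. Members up to 2400 bases long had a median of -0.32 (n = 26) and longer ones of 0.07 (n = 36).

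**Figure D4:**
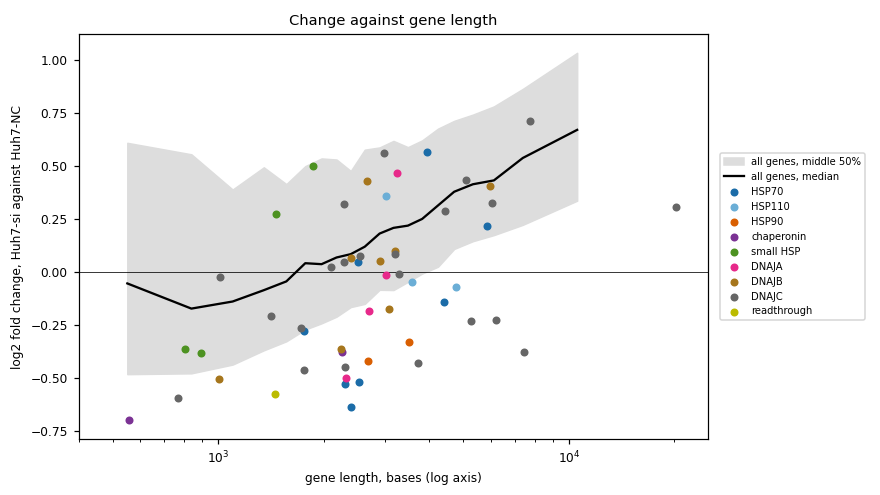
Log2 fold change against gene length (log axis) for the 54 chaperone genes with at least 100 reads. The black line is the median and the grey band the middle 50% of all genes with at least 10 reads in 20 length classes. The median is higher for longer genes, and HSP90AA1, HSP90AB1, HSPA8 and HSPA1A lie below the line at their length, while DNAJC13, at 7754 bases, lies above it.

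Ratios of related genes within a library do not depend on how libraries are scaled. The ratio of HSP90AA1 to HSP90AB1 reads was 0.68 in the control and 0.73 in the knockdown library, a ratio of ratios of 1.06 (95% interval 1.04 to 1.09). HSPA8 to the sum of HSPA1A and HSPA1B was 4.04 and 4.18 (1.03, 1.002 to 1.067), and HSPH1 to HSPA4 1.04 and 1.05 (1.02, 0.97 to 1.07). Within the HSP90AA1 and HSPA8 pairs, the constitutive and the inducible gene thus differed by similar factors, although both intervals excluded 1. HSPA8 stands as the constitutive gene here but is also in the heat inducible list. HSPD1 to HSPE1 went from 2.55 to 3.19 (1.252, 1.205 to 1.301), DNAJB1 to DNAJB6 from 0.97 to 1.07 (1.10, 1.03 to 1.18), and DNAJA1 to DNAJA2 from 6.24 to 4.46 (0.71, 0.66 to 0.77). Differences in length, as between HSPD1 (2257 bases) and HSPE1 (557 bases), are not taken out of these ratios. Relative to genes of like length, the order turned for DNAJB1 (-0.43) against DNAJB6 (-0.36). It also turned for HSP90AA1 (-0.55) against HSP90AB1 (-0.54). The order stayed for HSPD1 (-0.45) against HSPE1 (-0.65), DNAJA1 (-0.58) against DNAJA2 (-0.20) and HSPH1 (-0.27) against HSPA4 (-0.45).

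**Figure D5:**
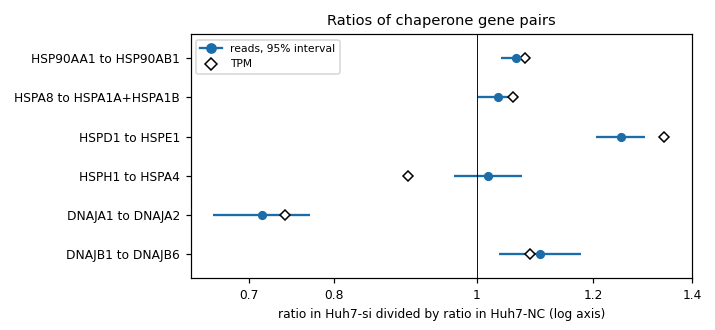
Ratio of the reads of paired chaperone genes in Huh7-si divided by the same ratio in Huh7-NC (log axis), with 95% intervals of counting error, and the same from TPM as diamonds. DNAJA1 to DNAJA2 lies lowest at 0.71 and HSPD1 to HSPE1 highest at 1.252, with 1 marking an equal ratio in both libraries.

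The partners of these chaperones were examined as lists. Of all 17921 genes with at least 10 reads, 6302 were lower in Huh7-si, and of the 7454 with at least 1000 reads 3392 were. Intervals lay below 0 for 26.1% of all genes with at least 100 reads and for 35.8% of those with at least 1000 reads. All genes of the TRiC and prefoldin lists had over 1000 reads over both libraries. All 8 subunits of the cytosolic chaperonin TRiC were lower in Huh7-si, with intervals below 0 and a median of -0.38, from CCT6A (-0.22) to CCT7 with 21125 and 13540 reads (-0.59), although by TPM CCT6A (0.04) and CCT5 (0.03) were higher. All 6 subunits of prefoldin, which passes actin and tubulin to TRiC, were lower as well, with a median of -0.38, and by TPM PFDN1 was higher (0.18). Of 16 HSP90 co-chaperones, 15 were lower, 12 with intervals below 0. Among the 12 were the HSP90 activator AHSA1 with 4270 and 2788 reads (-0.57) and p23 (PTGES3) with 13963 and 9257 reads (-0.54). The HSP70-HSP90 adaptor STIP1 with 10495 and 7427 reads (-0.45) and the ubiquitin ligase STUB1 (-0.51) were also among them. By TPM, CDC37L1 (0.31), CHORDC1 (0.22), TOMM34 (0.14), PPP5C (0.07) and FKBP5 (0.03) of the 15 were higher.

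Of 13 exchange factors and partners of HSP70, 2 had intervals above 0 (HYOU1 and HSPBAP1) and 6 below, and with TMM 2 above and 9 below. Over all genes with at least 100 reads, 45.9% lay above and 26.1% below, and with TMM 29.4% and 42%. The median of the 13 was 0.02 by total reads and -0.21 with TMM. Of the 13, 10 lay below genes of like length, as did 8955 of all 17921 genes with at least 10 reads. HSPBP1 (-0.66), the mitochondrial exchange factor GRPEL1 (-0.65) and BAG1 (-0.65) were the lowest, and HYOU1, the exchange factor of the endoplasmic reticulum, had 7873 and 9896 reads (0.38, 0.34 to 0.42). Among HSP90 paralogs, TRAP1 of mitochondria was lower (-0.39) and HSP90B1 of the endoplasmic reticulum higher by total reads (0.13, 0.11 to 0.16) but not with TMM (-0.09) or relative to genes of like length (-0.05). HSPA5, DNAJB9 and DNAJC3, left out of the group, had log2 fold changes of -0.01, -0.14 and 0.12.

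HSF1, the main transcription factor of the response, had 2617 and 2550 reads (0.01, -0.07 to 0.09) and HSF2 519 and 539 reads (0.10, -0.07 to 0.28), or -0.21 and -0.12 with TMM, while HSBP1, which binds HSF1, was lower (-0.32, -0.40 to -0.24). HSF4, a factor of the lens, had 51 and 202 reads (2.03, 1.59 to 2.51) and was the one gene of the 50 in these lists past the 2-fold threshold.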

How the data were processed

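RNA-seq libraries of Huh7-NC and Huh7-si cells were compared, 1 per condition. The authors deposited an estimated count of reads and a TPM value per gene. The submitters' processing notes name TopHat2 2.0.12, Bowtie2 2.0.6 and GRCh37; the counting tool, annotation and strandedness are not given in the sources used here. The authors' deposited fold and p columns were not used. Estimated counts were rounded for tests. Fold changes are ratios of CPM by total reads. A count of 0 allows 3 reads, which is 0.131 CPM for the control and 0.136 CPM for the knockdown library; intervals and this limit cover counting error only. Medians used a pseudocount of 0.5 reads and genes with at least 10 reads, and length classes 20 bins.

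Named genes were those called, the 10 with the highest TPM, the 6 largest rises and falls, the heat inducible list and the most read member of each role; the remaining members with their values were chosen after their values were seen. Members and lists were chosen with earlier results of these data known. Alternatives were TMM, median of ratios, upper quartile, TPM, like length, filters, pseudocounts, a 1.5-fold threshold, Benjamini-Hochberg adjustment and edgeR's exact test at an assumed coefficient of variation of 0.1 or 0.4. Overlaps used GENCODE release 29 (GRCh38), matched by identifier. The test was checked on simulated counts that held counting error only, which cannot check it against variation between libraries. Planned protein features were not computed. Python 3.11.15, NumPy 2.4.6, pandas 2.3.3, SciPy 1.17.1, matplotlib 3.10.9, R 4.3.3, edgeR 4.0.16 and DESeq2 1.42.0 were used.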

Additional observations from a re-analysis of the deposited data

How the results depend on the processing

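The single gene called higher at 2-fold (1 under total reads and relative to genes of like length) was lost (0 called) with TMM, the median of ratios, the upper quartile, at least 10 reads in each library, a pseudocount of 1 CPM, Benjamini-Hochberg adjustment, edgeR's exact test at an assumed coefficient of variation of 0.1 or 0.4, and without the readthrough genes, alone or with the divergent transcripts (added after seeing the data). At 1.5-fold 3 were called higher and 3 lower; 0 were called lower at 2-fold under every setting run. The median of the members was -0.24 with TMM, -0.22 with the median of ratios, -0.20 with the upper quartile and relative to genes of like length, 0.16 with TPM, -0.059 with at least 100 reads, -0.18 with at least 1000 reads (added) and -0.014 without a filter, against -0.017. Members higher beyond counting error numbered 14 under total reads, 5 with TMM, 6 with the median of ratios, 8 with the upper quartile and 6 relative to genes of like length, against 37, 35, 34 and 30 lower in place of 26 (these counts were added). From TPM, the ratio of ratios was 1.34 for HSPD1 to HSPE1 and 0.90 for HSPH1 to HSPA4. Of the 25 members named by rule, 3 changed sign under any setting: HSPA9 (0.20) and DNAJC18 (-0.14) with TPM, and HSPA6 with TMM (-0.18), the median of ratios (-0.16), the upper quartile (-0.14) and like length (-0.04). The cause was not tested. No replicate could be left out with 1 library per condition. No paired analysis was possible because there is 1 library per condition.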
